A study of Mus musculus with 7 samples.

Results

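The 10 genes described here encode antioxidant enzymes or metal-binding metallothioneins and were followed across the cell clusters of the mouse kidney. They were the glutathione peroxidase genes Gpx1, Gpx3 and Gpx4, the catalase gene Cat, the superoxide dismutase genes Sod1 and Sod2, the peroxiredoxin genes Prdx1 and Prdx5, and the metallothionein genes Mt1 and Mt2. They are a list of names, drawn up with earlier results of these data known, and all 10 were found among the 16272 genes of the deposited matrix. Whole kidneys of 7 C57BL/6 mice aged 4 to 8 weeks were dissociated and profiled by droplet sequencing of transcript 3′ ends, with unique molecular identifiers (UMIs) that count each captured molecule. Per the labels, 3 mice carried a Cre reporter, each a single animal of its genotype and among them Cdh16CremTmG and SclCremTmG, and 4 were WT. In these genotypes a Cre recombinase is driven by Cdh16, a tubule cadherin gene, or by Scl, together with mTmG, a membrane reporter that Cre switches from red to green. No treatment is labelled for any mouse. A digit at the end of every barcode tells the 7 libraries apart, and no source used here links these digits to mice. WT and reporter kidneys were therefore not compared. Each library was taken as 1 kidney, although the libraries differed strongly in some proximal genes, as given further on.

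The matrix held 43745 cells, against 57979 stated in the labels, each with one of 16 cluster numbers set by the authors. Libraries held 1383 to 14136 cells, 4217169 to 49997616 UMIs, a median of 1630.0 to 3115 UMIs per cell and a median mitochondrial share of 17.1% to 23.3%, and 974 barcodes occurred in more than 1 library. By marker genes, cluster 3 was proximal tubule-like (13 of 14 markers highest there, 26482 cells), cluster 4 loop of Henle-like (5 of 6, 1581 cells), cluster 5 distal convoluted tubule-like (6 of 6, 8544 cells), cluster 6 principal-like (7 of 7, 870 cells) and cluster 7 intercalated-like (6 of 9, 1729 cells). Clusters 1 and 2 were endothelial-like and podocyte-like, and cluster 1 also held the highest level of fibroblast and mural markers. Clusters 11 to 15 were macrophage-, neutrophil-, B lymphocyte-, T lymphocyte- and natural killer-like. Cluster 10 held monocyte markers, cluster 8 the markers of clusters 6 and 7 together, cluster 16 proliferation with lymphocyte genes, and cluster 9 proliferation with proximal genes, with 552 of its 601 cells from library 5. Levels are given in CPM, the usual scaling of a count by the total UMIs in the sum of all cells of a library and cluster, for sums of at least 5 cells. Since the cluster numbers were themselves derived from this matrix, p-values between clusters are not independent evidence that the cell types differ.

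Reactive oxygen species are removed in steps. Superoxide dismutases turn superoxide into hydrogen peroxide, SOD1 mainly in the cytosol with copper and zinc and SOD2 in mitochondria with manganese. Hydrogen peroxide is then removed by catalase in peroxisomes, by peroxiredoxins that draw on thioredoxin, and by glutathione peroxidases, of which GPX1 acts in the cytosol and mitochondria, GPX4 repairs peroxidised membrane lipids and GPX3 is secreted. The kidney is the main source of the GPX3 of plasma, and these 3 enzymes contain selenium. Metallothioneins are small cysteine-rich proteins that bind zinc, copper and cadmium, and their genes are switched on by metals through the transcription factor MTF1 and by glucocorticoids.

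Mt2 (ENSMUSG00000031762, chr8:94172664-94173568) and Mt1 (ENSMUSG00000031765, chr8:94179082-94180327) lie on the same strand of GRCm38, with 5513 bases between the end of Mt2 and the start of Mt1. Their promoter windows from RefSeq (build GRCm38.p6, 250 bases before to 50 after the start) are shown because both genes followed one another across clusters, and the window of Gpx3, the most abundant of the 10 genes in cluster 3, is shown beside them for comparison. Capitals mark the core of the metal response element, TGCACNC or TGCGCNC on either strand, so a match on the other strand appears as its reverse complement. The windows are chr8:94178839-94179138 (Mt1, plus strand), chr8:94172368-94172667 (Mt2, plus strand) and chr11:54902604-54902903 (Gpx3, plus strand).
Mt1: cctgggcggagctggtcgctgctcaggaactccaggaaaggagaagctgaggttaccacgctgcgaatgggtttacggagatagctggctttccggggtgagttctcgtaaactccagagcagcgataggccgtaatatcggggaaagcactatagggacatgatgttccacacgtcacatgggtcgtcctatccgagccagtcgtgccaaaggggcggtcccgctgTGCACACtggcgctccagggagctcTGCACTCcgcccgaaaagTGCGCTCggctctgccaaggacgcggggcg
Mt2: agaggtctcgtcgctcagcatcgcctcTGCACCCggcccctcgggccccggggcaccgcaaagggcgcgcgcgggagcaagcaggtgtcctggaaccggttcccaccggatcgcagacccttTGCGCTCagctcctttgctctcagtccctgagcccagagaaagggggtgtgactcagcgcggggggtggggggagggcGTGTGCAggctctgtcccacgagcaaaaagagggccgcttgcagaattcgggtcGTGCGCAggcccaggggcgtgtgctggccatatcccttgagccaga
Gpx3: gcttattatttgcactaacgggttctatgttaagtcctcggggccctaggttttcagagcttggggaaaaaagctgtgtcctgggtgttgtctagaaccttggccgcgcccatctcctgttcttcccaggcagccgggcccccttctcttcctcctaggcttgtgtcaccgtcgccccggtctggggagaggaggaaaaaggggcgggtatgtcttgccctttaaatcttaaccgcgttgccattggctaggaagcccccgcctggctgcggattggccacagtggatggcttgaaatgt
The Mt1 window held 3 matches and the Mt2 window 4, while the windows of the other 8 genes held 0. Of the 32851 windows of the same length, 25.7% held at least 1 match, 1.97% at least 3 and 0.517% at least 4. The core of the antioxidant response element, TGANNNNGC on either strand, is bound by NRF2, the factor that switches on many antioxidant genes. It was present in 41.3% of all windows, with 2 matches in the Prdx1 window, 1 each in the windows of Sod1, Prdx5 and Mt2, and 0 in the others. Such matches are letters in a window, not measured binding.

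The other 8 genes are protein-coding and lie on GRCm38 at chr9:108338903-108340343 (Gpx1, ENSMUSG00000063856), chr11:54902453-54910377 (Gpx3, ENSMUSG00000018339), chr10:80047166-80056439 (Gpx4, ENSMUSG00000075706), chr2:103453849-103485160 (Cat, ENSMUSG00000027187), chr16:90220754-90226329 (Sod1, ENSMUSG00000022982), chr17:13006846-13040063 (Sod2, ENSMUSG00000006818), chr4:116685544-116700822 (Prdx1, ENSMUSG00000028691) and chr19:6906697-6910106 (Prdx5, ENSMUSG00000024953). Counts are per gene, with no split by exon or transcript. Sod1 overlaps Scaf4 and Prdx5 overlaps Trmt112 on the opposite strand, and whether counting used strand is not given in the sources used here.

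The 10 genes did not share a single pattern. By mean level, 2 of them, Gpx1 and Cat, were highest in proximal tubule-like cells, and 3, Gpx3, Gpx4 and Prdx1, in the proliferating proximal cells of cluster 9, with cluster 3 second for Gpx3 and Prdx1. Mt1, Mt2 and Prdx5 were highest in loop of Henle-like cells, Sod2 in intercalated-like cells and Sod1 in endothelial-like cells. Few neighbouring levels were apart. When each gene's clusters were ordered by mean level, mean ± SD intervals of neighbours were apart in 8 of 150 pairs, and in none for Sod1, Sod2, Prdx1 and Prdx5. These intervals ignore that clusters share libraries. In a count chosen after seeing the data, the higher cluster of a pair was above its neighbour in every library that held both, with at least 4 such libraries, in 13 of 150 pairs. Among these was Prdx1 in cluster 9 above cluster 3 in 4 of 4 libraries and Sod2 in cluster 5 above cluster 6 in 6 of 6.

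**Figure D1:**
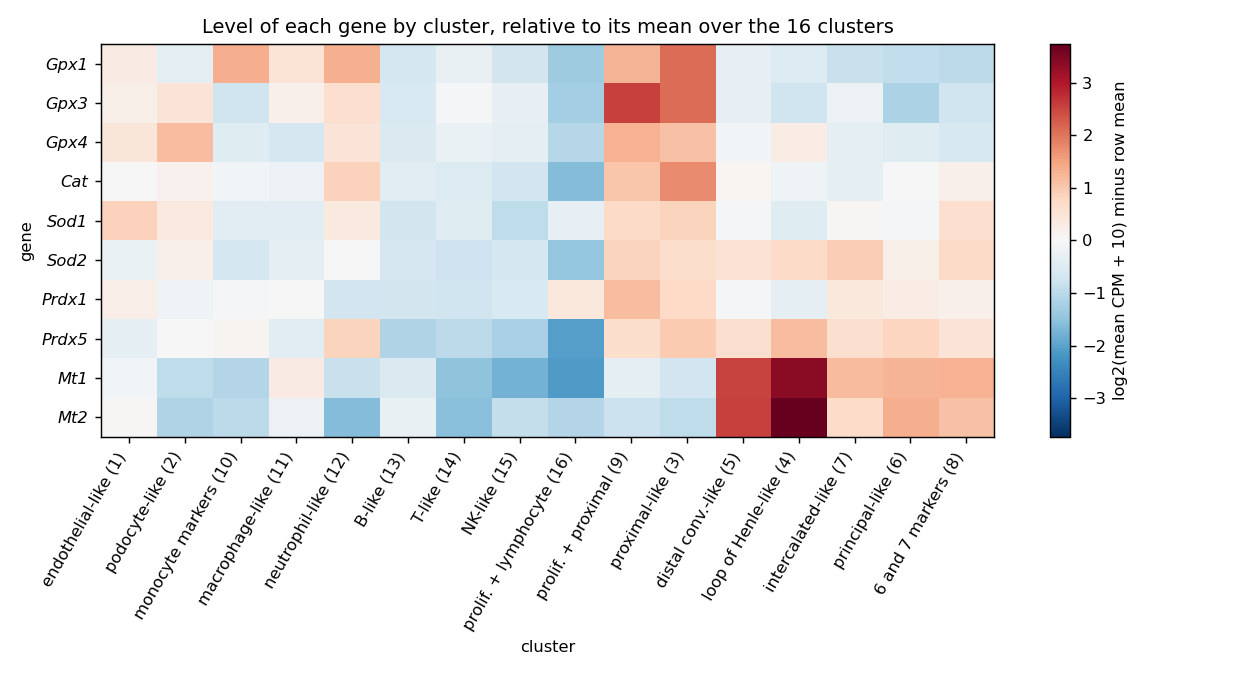
Level of the 10 genes (rows) in the 16 clusters (columns), as log2(mean CPM + 10) minus the gene's mean over the clusters, with red for higher and blue for lower. Mt1 and Mt2 are most red in the loop of Henle-like and distal convoluted tubule-like clusters and pale or blue in the proximal-like cluster, where Gpx1, Gpx3 and Cat are red.

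Among the glutathione peroxidases, Gpx3 was the most abundant in proximal tubule-like cells. Gpx3 reached 21333, 17551, 12679, 9892, 24139.7, 23098 and 14807 CPM in libraries 1 to 7 of cluster 3, so its level differed 2.44-fold between the lowest library, 4, and the highest, 5. In cluster 9 it stood at 28422, 19936, 20437 and 27512 CPM in libraries 1, 2, 5 and 6. This was above cluster 3 in 3 of 4 libraries, but below it in library 5, which gave most cells of cluster 9. Its next level, 6350.1 ± 5823 CPM (SD, n = 5) in neutrophil-like cells, lay apart from cluster 3 by mean ± SD, although the ranges overlapped.

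Gpx1 was far steadier. Its 7 libraries of cluster 3 lay at 3349, 3244, 3024, 3202, 3003, 3074 and 3369.8 CPM, a 1.12-fold range with a coefficient of variation of 4.73%. The median coefficient of 2282 genes of at least 50 CPM there was 19.5%, which put Gpx1 at the 0.351th percentile. The second level, 1898 ± 355 CPM (SD, n = 7) in the monocyte-marker cluster 10, lay clear of cluster 3 in its range, with a highest library of 2361 CPM. Neutrophil-like cells (1865 ± 1144, n = 5) and cluster 9 (1768 ± 299.8, n = 4) followed without being distinguishable from it, and principal-like cells, cluster 8 and cluster 16 had the lowest means, at 387, 367 and 284 CPM.

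Gpx4 was distributed more evenly. It averaged 1602 ± 509 CPM in cluster 9 (SD, n = 4), 1440.0 ± 242 in podocyte-like cells (n = 4) and 1389 ± 119 in cluster 3 (n = 7), and these means were within their spread. Podocyte-like cells, which form the filtration barrier of the glomerulus, held 1629, 1139.6, 1349 and 1643 CPM in libraries 2, 5, 6 and 7. The lowest of those libraries was above every library of the endothelial-like cluster, where the highest was 1016 CPM.

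Catalase RNA was highest in proximal tubule-like cells, at 503, 386, 555, 520.1, 416, 614 and 470.1 CPM in libraries 1 to 7. All 7 libraries lay above the 4 of cluster 9, whose highest was 357 CPM. The highest library among the distal convoluted tubule-like, loop of Henle-like, intercalated-like and principal-like clusters was at 246 CPM.

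**Figure D2:**
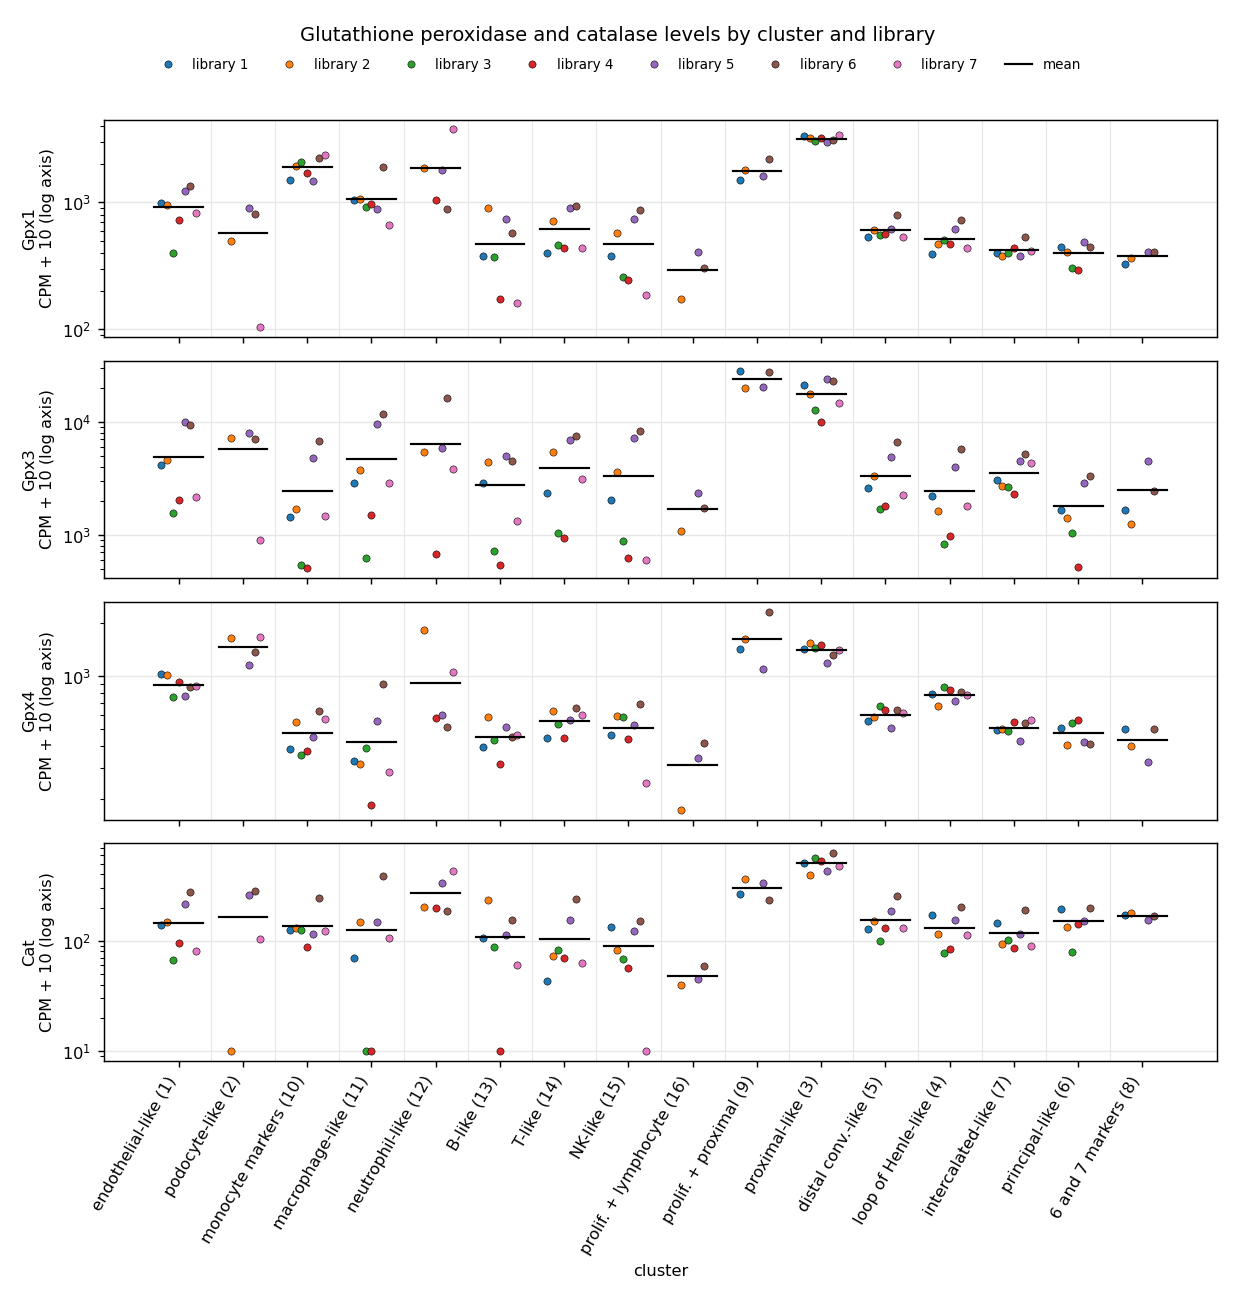
Gpx1, Gpx3, Gpx4 and Cat in each cluster, as CPM + 10 on a log axis, with one point per library and a line at the mean. The 7 points of Gpx1 in the proximal-like cluster lie between 3003 and 3369.8 CPM, while those of Gpx3 spread from 9892 to 24139.7 CPM.

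Proximal tubule-like cells were set against the average of clusters 4 to 7, which hold the more distal nephron and the collecting duct, with edgeR's quasi-likelihood test on library sums and Benjamini-Hochberg adjustment over 7952 genes. Of the 10 genes, 7 were higher and 2 lower at an adjusted p under 0.05, where 29.1% of all genes tested were higher and 31.4% lower (60.4% in either direction), and their median log2 fold was 1.01 against -0.04 over all genes. The log2 fold was 3.06 ± 0.188 (SE) for Gpx3 (edgeR adjusted p = 3.17e-29), 2.95 ± 0.145 for Gpx1 (1.39e-36), 2.20 ± 0.139 for Cat (2.51e-28) and 1.44 ± 0.117 for Gpx4 (4.42e-21). Sod1 was higher by 1.18 ± 0.127 and Prdx1 by 0.83 ± 0.124. Prdx5 was higher by 0.34 ± 0.154 (edgeR adjusted p = 0.0471), a call that was lost without library 1, 3, 4 or 5 (adjusted p from 0.0592 to 0.167) and with DESeq2 (0.507). Sod2 did not pass (0.18 ± 0.133, edgeR adjusted p = 0.232), and with the size factors of DESeq2 its fold was -0.05. Mt1 (-2.85 ± 0.258) and Mt2 (-3.29 ± 0.277) were the 2 genes that were lower.

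Within each library the same picture held for the larger differences. Gpx1 was 3.91 to 6.402 times as high in cluster 3 as in distal convoluted tubule-like cells, Cat 2.36 to 6.16 times and Gpx4 2.08 to 2.67 times, in 7 of 7 libraries each. The scaling of the fit bears on small folds here. With the size factors of DESeq2 the median of all genes moved to -0.30, and 1645 genes were higher and 3607 lower, against 2311 and 2494 with the TMM scaling of edgeR. The sign of Sod2 and the call of Prdx5 changed with that scaling.

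Red blood cells are rich in antioxidant enzymes, and their 4 measured markers were all highest in cluster 3. Their summed level ran from 0.376 to 6610.1 CPM over the libraries of cluster 3, from 0.398 to 2318 CPM in cluster 5, from 0 to 19.9 CPM in cluster 4 and from 0 to 24.8 CPM in cluster 7. In libraries 6 and 7 of cluster 3, with 0.467 and 0.376 CPM of these markers, Gpx1 was at 3074 and 3369.8 CPM and Cat at 614 and 470.1 CPM. Libraries 3 and 4, with 6610.1 and 1374 CPM of them, had the highest Prdx1 and Prdx5 levels of cluster 3. Both libraries also held more late proximal cells (342 and 628) than early ones (58 and 101), as defined further on. The part of red cells in the levels of Gpx1, Cat, Prdx1 and Prdx5 was not tested. Nor was their part in the contrasts of cluster 3 with clusters 4 to 7 and of cluster 5 with cluster 4.

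Metallothionein RNA was highest in loop of Henle-like and distal convoluted tubule-like cells instead. Mt1 was at 283, 169, 97.6, 165, 304, 219 and 731 CPM in libraries 1 to 7 of cluster 3. In distal convoluted tubule-like cells it was at 3088, 2351, 2269, 2184, 2609, 2298 and 4482 CPM, and in loop of Henle-like cells at 5896, 3414, 4841, 4673, 6577, 5091 and 4738 CPM. The range of cluster 3 did not overlap that of either distal cluster, and library 7 was the highest library in clusters 3 and 5 but not in cluster 4. Intercalated-like cells averaged 1094 ± 209 CPM (SD, n = 7) and principal-like cells 1164 ± 345 (n = 6), levels that did not differ beyond their spread. In each library Mt1 was 6.13 to 23.3 times as high in cluster 5, and 6.48 to 49.6 times as high in cluster 4, as in cluster 3.

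Mt2 followed at lower counts. Its libraries 1 to 7 stood at 50.5, 21.9, 19.2, 30.6, 30.5, 32.0 and 142 CPM in cluster 3, at 763, 512, 507, 492, 356, 502 and 1271 CPM in cluster 5, and at 1735, 679.9, 1492, 1483, 1874, 1553 and 1312 CPM in cluster 4. Library 7 was again the highest in clusters 3 and 5, and library 2 the lowest in cluster 4. UMIs of the 3′ end do not grow with transcript length, so both genes are set side by side in UMIs. Mt1 had 3.53 to 7.34 times the UMIs of Mt2 in cluster 5 and 3.15 to 5.02 times in cluster 4. Differences between the 2 genes in capture or mapping were not tested.

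**Figure D3:**
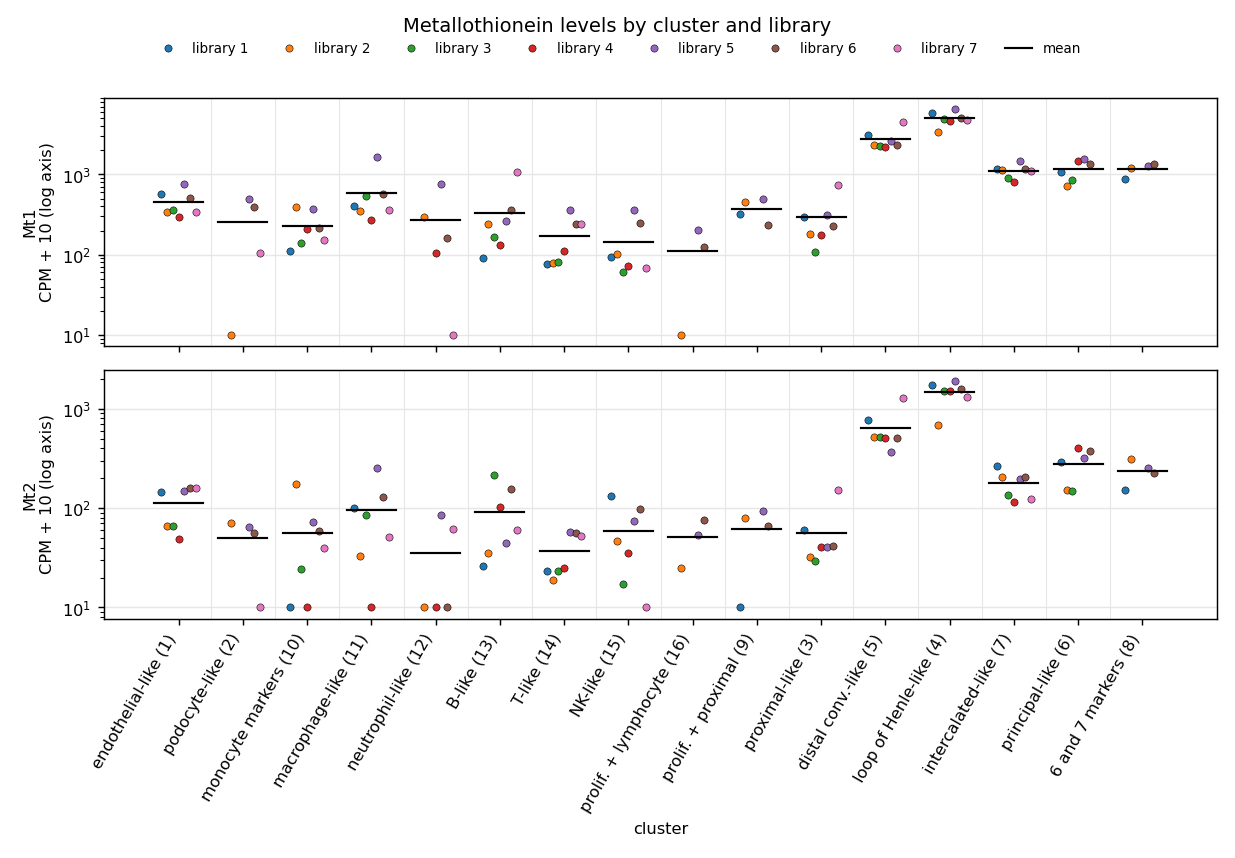
Mt1 and Mt2 in each cluster, as CPM + 10 on a log axis, with one point per library and a line at the mean. Mt1 runs from 97.6 to 731 CPM in the proximal-like cluster, with library 7 on top, against 3414 to 6577 CPM in the loop of Henle-like cluster.

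Single cells held the metallothionein difference too. With every cell thinned to 1000 UMIs, which left out 2494 shallower cells, Mt1 was seen in 21.8% of cells of cluster 3, 81.1% of cluster 5, 93.4% of cluster 4, 54.2% of cluster 7 and 53.5% of cluster 6. Without thinning the shares were 38.1%, 93.1%, 98.0%, 82.2% and 77.8%, at median depths of 2281, 2438, 2182, 3917 and 2894.5 UMIs. Natural killer-like cells, with the lowest share, had 9.21% thinned and 17.6% unthinned at a median of 1990.0 UMIs. At least 5 Mt1 UMIs were found in 0.708% of the thinned cells of cluster 3, 20.2% of cluster 5 and 45.6% of cluster 4.

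Mt2 was seen more often in cells with Mt1 than in cells without. Loop of Henle-like cells without Mt1 were few, as the shares above show. In loop of Henle-like cells thinned to 1000 UMIs, Mt2 was seen in 60.7% of cells with Mt1 and in 18.4% of cells without, and in distal convoluted tubule-like cells in 37.2% and 16.1%. In cluster 3 the shares were 9.004% and 2.34%, and 60.8% of the cells there with at least 5 Mt1 UMIs also had Mt2. Cells of all libraries were pooled for these shares. In cluster 3 the cells with at least 5 Mt1 UMIs were 3.11% of library 7 (exact binomial 95% interval 2.58% to 3.73%) and 0.115% to 0.834% of the other libraries. These intervals cover counting error only.

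Between the distal convoluted tubule-like and loop of Henle-like clusters, 3 of the 10 genes were higher and 1 lower, where 6.75% of all genes were higher and 6.01% lower (12.8% in either direction), and their median log2 fold was 0.28 against 0.05 over all genes. Mt2 was lower by a log2 fold of -1.002 ± 0.276 (edgeR adjusted p = 0.00592), and was not called by DESeq2 (adjusted p = 0.0983). Mt1 had a log2 fold of -0.62 ± 0.264 and did not pass (edgeR adjusted p = 0.117), although its level was lower in cluster 5 in 7 of 7 libraries. It passed without library 7 (-0.76, adjusted p = 0.0421) and with only these 2 clusters in the fit (-0.66, adjusted p = 3.14e-06). Gpx3 was higher by 0.83 ± 0.273, Sod1 by 0.70 ± 0.184 and Prdx1 by 0.56 ± 0.168. Proximal markers also stood higher in cluster 5 than in cluster 4, at a median of 11.7% against 9.80% of their level in cluster 3. The part of RNA set free from proximal cells, gauged further on, in the Gpx3 fold was not tested. None of the 4 calls was kept in the fit without a library block, and Gpx3 was also lost without library 2, 3, 4 or 5 (adjusted p from 0.0541 to 0.0828) and Prdx1 without library 7 (0.0715).

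Between intercalated-like and principal-like cells of the collecting duct, 2 of the 10 genes were higher and 0 lower, against 12.7% and 12.3% of all genes (25% in either direction), with a median log2 fold of 0.29 against -0.01. Sod2 stood at 375, 466.01, 538, 510.5, 411 and 464 CPM in libraries 1 to 6 of cluster 7, and at 242, 309.9, 292.5, 244, 286 and 234 CPM in the same libraries of cluster 6. Its log2 fold was 0.89 ± 0.191 (edgeR adjusted p = 9.24e-05), higher in 6 of 6 libraries, and it passed in all 16 alternative fits. Gpx3 was higher by 1.60 ± 0.301 (adjusted p = 7.84e-06), in 6 of 6 libraries, and did not pass without a library block (1.06, adjusted p = 0.243). With the size factors of DESeq2, 674 genes were higher and 1448 lower in this contrast, against 1011 and 976 with TMM. The Gpx3 level of cluster 7 also exceeded the proximal markers there, as given further on. Mt2 was at -0.61 ± 0.315 (adjusted p = 0.161) and Mt1 at 0.06 ± 0.283.

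Sod1, by mean level, ranked first in endothelial-like cells, with 196.5, 255, 357, 444, 294, 325 and 360.2 CPM in libraries 1 to 7, against 339, 272.5, 316, 331, 297, 339.7 and 259.5 CPM in cluster 3, and these ranges overlapped. Prdx1 had means from 344 CPM in T lymphocyte-like cells to 1288 CPM in cluster 9. Within cluster 3 it stood at 1465 and 1452 CPM in libraries 3 and 4 and at 647, 621 and 483 CPM in libraries 5, 6 and 7, and Prdx5 likewise at 2311 and 2651 CPM in libraries 3 and 4 and at 1274, 1436 and 1143 CPM in libraries 5, 6 and 7. Prdx5 was highest in loop of Henle-like cells, at 1659 to 2396 CPM, although library 4 of cluster 3 was higher still at 2651 CPM. It was above distal convoluted tubule-like cells in 7 of 7 libraries, but the contrast of cluster 5 with cluster 4 did not pass (-0.31 ± 0.199, edgeR adjusted p = 0.369).

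The proximal tubule is itself graded, from early segments next to the glomerulus to the late straight segment. Cells of cluster 3 were called late with at least 1 UMI of Slc7a13, Slc22a7, Slc5a10 or Slc6a18 and none of the early genes, and early with at least 1 UMI of Slc5a2 or Slc5a12 and none of the late genes. This gave 7428 late and 9551 early cells, with 2345 cells of both and 7158 of neither, and 2911 late and 2793 early cells rested on a single UMI. The late gene Slc7a13 was at 2.29 CPM in late cells of library 7 and 83.6 CPM in those of library 5, against at least 546 CPM in the other 5 libraries. The proximal marker Kap was at 166 and 1628 CPM in libraries 7 and 5 of cluster 3, against 10287 to 40181 CPM in the other 5. Late cells had a median of 2612.5 UMIs and early cells 2368. The antioxidant genes parted along this axis. Of the 10 genes, 3 were higher and 3 lower in late cells, where 13.2% and 12.1% of 9490 genes tested were higher and lower (25.3% in either direction), and the median log2 fold was 0.08 against -0.03 over all genes.

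Gpx3 was lower in late cells. It stood at 9464, 9267, 7683, 6794, 12785, 15837 and 9982.5 CPM in late cells of libraries 1 to 7, against 31468, 25615, 35913, 27290.5, 33847, 35387 and 20596 CPM in early cells, and the ranges did not overlap. The log2 fold was -1.59 ± 0.142 (edgeR adjusted p = 1.72e-09). Libraries 3 and 4, which had the lowest Gpx3 levels in cluster 3 as a whole, held 342 and 628 late cells against 58 and 101 early cells. Among late cells alone these 2 libraries were still the lowest, at 7683 and 6794 CPM, while among early cells library 3 was the highest and library 4 the fifth of 7.

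Both metallothioneins were also lower in late cells. Mt1 was at 97.8, 60.4, 40.1, 92.9, 139.9, 119 and 210.4 CPM in late cells and at 412, 271, 95.5, 557, 409.6, 345 and 1082 CPM in early cells of libraries 1 to 7, lower in late cells in 7 of 7 (log2 fold -2.003 ± 0.127, edgeR adjusted p = 3.66e-12). Library 7 was the highest of the 7 in late and in early cells. Mt2 had a log2 fold of -1.65 ± 0.224 (edgeR adjusted p = 2.27e-06) at means of 18.7 CPM in late and 78.9 CPM in early cells.

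Catalase and Sod1 ran the other way. Cat averaged 573 ± 87.7 CPM in late and 355 ± 83.3 CPM in early cells (SD, n = 7 each), higher in late cells in 7 of 7 libraries, with a log2 fold of 0.64 ± 0.105 (edgeR adjusted p = 3.63e-05). Sod1 averaged 347 ± 47.5 and 250.1 ± 36.5 CPM in late and early cells, also higher in 7 of 7 (0.46 ± 0.095, edgeR adjusted p = 0.00058). Gpx1 was higher by 0.30 ± 0.105 (edgeR adjusted p = 0.0401), in libraries 1, 2, 5, 6 and 7 but not in 3 and 4, and the call was lost without library 1, 2, 5, 6 or 7 (adjusted p from 0.071 to 0.103). Gpx4, Sod2, Prdx1 and Prdx5 did not pass. Prdx5 was close (0.28 ± 0.105, edgeR adjusted p = 0.0561) and passed in 7 of 16 alternatives, among them DESeq2 (0.0491), thinned cells (0.0238), no low-count filter (0.00621) and at least 2 marker UMIs (0.00257).

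**Figure D4:**
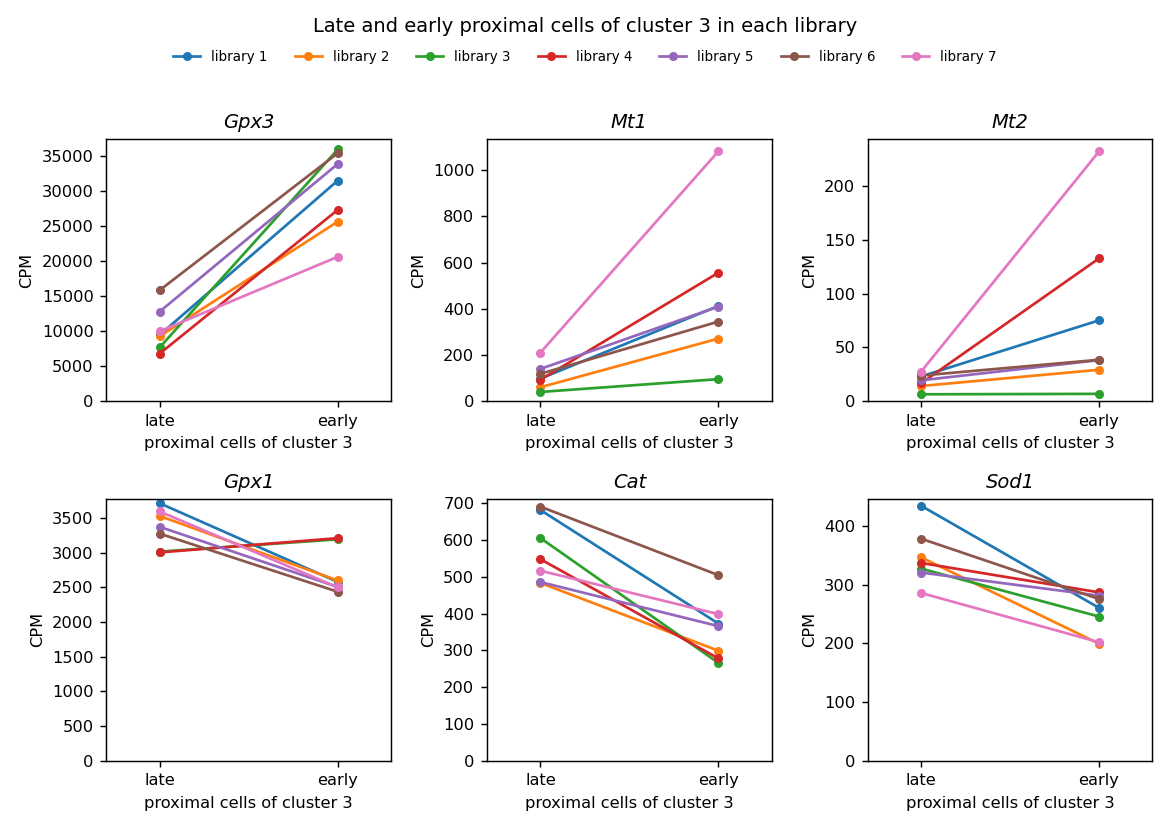
CPM of 6 genes in late (left) and early (right) cells of the proximal-like cluster, with a line for each of the 7 libraries and axes that start at 0. Every line of Gpx3 and Mt1 is higher at early cells, every line of Cat and Sod1 is higher at late cells, and library 7 stands out for Mt1 at 1082 CPM in early cells.

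Among immune cells, the mean of clusters 11 to 15 was set against the mean of clusters 3 to 7. Of the 10 genes, 0 were higher and 9 lower, but 43.6% of all genes were lower and 14.1% higher (57.6% in either direction), and the median log2 fold was -0.83 for the 10 genes and -0.43 over all genes, so the folds are to be read against that shift. The largest were those of Mt1 (-2.80 ± 0.156), Mt2 (-2.70 ± 0.219) and Prdx5 (-1.68 ± 0.104), and Gpx1 did not pass (-0.18 ± 0.106, edgeR adjusted p = 0.135). Gpx1 passed as lower with thinned cells (-0.51, adjusted p = 3.61e-05), without the 5% of cells with the most UMIs (-0.35, 0.0039), with no low-count filter (-0.32, 0.0137), with sums of at least 20 cells (-0.32, 0.0366) and without library 2 (-0.34, 0.0157). Gpx3 passed at -0.55 ± 0.132, but not without library 4 (-0.26, adjusted p = 0.112), with sums of at least 20 cells (-0.19, 0.324) or without a library block (-0.18, 0.617).

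Mt1 was higher in macrophage-like cells than in the mean of immune clusters 12 to 15, a contrast that leaves out the monocyte-marker cluster 10. Mt1 was at 399.7, 342, 532.5, 264, 1645, 555 and 355 CPM in libraries 1 to 7 of cluster 11, with library 5 far above the others, and its log2 fold over the mean of clusters 12 to 15 was 1.46 ± 0.272 (edgeR adjusted p = 1.06e-05). Single clusters overlapped, with means of 585 ± 479 CPM in macrophage-like and 321 ± 335 CPM in B lymphocyte-like cells (SD, n = 7 each), and in library 7 Mt1 was at 355 CPM in macrophage-like and 1053 CPM in B lymphocyte-like cells. Mt2 did not pass (1.17 ± 0.494, edgeR adjusted p = 0.104). Without library 5 Mt1 still passed, and over all 16 alternatives the fold ran from 1.36 to 1.71. Gpx1 (0.57 ± 0.190, adjusted p = 0.0249) and Prdx1 (0.56 ± 0.169, adjusted p = 0.0122) also passed, so 3 of 10 genes were higher and 0 lower, where 11.4% and 3.96% of all genes were (15.3% in either direction), and the median log2 fold was 0.29 against 0.23 over all genes. Gpx1 was lost without library 1, 4 or 6 (adjusted p from 0.111 to 0.322) and Prdx1 without library 1, 6 or 7 (adjusted p from 0.0669 to 0.1). Gpx1 was not highest in macrophage-like cells among immune clusters. Its mean was 1059 CPM there, 1898 CPM in cluster 10, which was above in 7 of 7 libraries, and 1865 CPM in neutrophil-like cells. In clusters 13, 14 and 15 it was 461, 602 and 457 CPM.

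Endothelial-like cells, against the mean of clusters 3 to 7, had 1 of 10 genes higher and 5 lower, where 25.8% and 22.3% of all genes were (48.1% in either direction), with a median log2 fold of -0.45 against 0.01. Sod1 was higher by 0.49 ± 0.143 (edgeR adjusted p = 0.00238). Mt1 (-2.02 ± 0.247), Mt2 (-1.83 ± 0.279), Prdx5 (-1.55 ± 0.178), Sod2 (-1.22 ± 0.158) and Cat (-0.63 ± 0.181) were lower, the call of Cat being lost without a library block (-0.58, edgeR adjusted p = 0.0708). With the size factors of DESeq2, 2420 genes were higher and 1420 lower, against 2055 and 1771 with TMM. The median mitochondrial share of a cell's UMIs was 9.42% in cluster 1 and 16.7% to 31.7% in clusters 3 to 7, and the part of this in the lower level of Sod2, a gene of a mitochondrial enzyme, was not tested.

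Gpx3 was seen in most cells of every cluster, including lymphocytes. With cells thinned to 1000 UMIs, at least 1 Gpx3 UMI was found in 99.9% of cells of cluster 3 and in at least 60.9% of cells of each other cluster. Without thinning it was found in 88.1% of T lymphocyte-like cells, at a median of 1875 UMIs, and in 85.9% of natural killer-like cells. RNA set free from broken cells enters droplets of every type, and 14 proximal marker genes served as a gauge. In each cluster the level of a gene was divided by its level in cluster 3 of the same library, and the median over libraries was compared with the range of those 14 markers. Gpx3 lay within or below that range in 11 of 15 clusters and above it in clusters 5, 7, 8 and 9. In T lymphocyte-like cells it was at 20.95% of its level in cluster 3, where the markers ran from 5.39% to 27.4% with a median of 13.8%. Its percentages by library ran from 8.05% in library 3 to 32.2% in library 6. They were above those of the proximal gene Miox, from 7.19% in library 3 to 28.4% in library 6, in 7 of 7 libraries. Against the proximal marker Kap the order was mixed. Kap was above Gpx3 in library 1 (14.7% against 10.9%), library 3 (9.47% against 8.05%), library 4 (10.5% against 9.37%) and library 6 (33.9% against 32.2%). It was below Gpx3 in libraries 2, 5 and 7. Inside the marker range, low expression of Gpx3 and free RNA cannot be told apart. In intercalated-like cells Gpx3 was at 20.6%, above the highest marker at 14.9%.

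Cluster 9 held the proximal markers at a median of 56.2% of their level in cluster 3 (15.7% to 87.8%), which makes the gauge unsuitable there. Over the other 14 clusters Gpx1 lay within the marker range in 8, Cat in 6 and Gpx3 in 11. Gpx1 exceeded the markers in cluster 10, at 59.6% against at most 13.8%, and in macrophage-like cells, at 30.2% against at most 22.7%. Gpx4, Sod1, Sod2 and Mt1 were above the highest marker in all 15 clusters, Prdx1 and Mt2 in 14 and Prdx5 in 13. For Mt1 and Mt2 this gauge means little, because cluster 3 is not where they are highest, and free RNA from the distal tubule was not gauged.

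**Figure D5:**
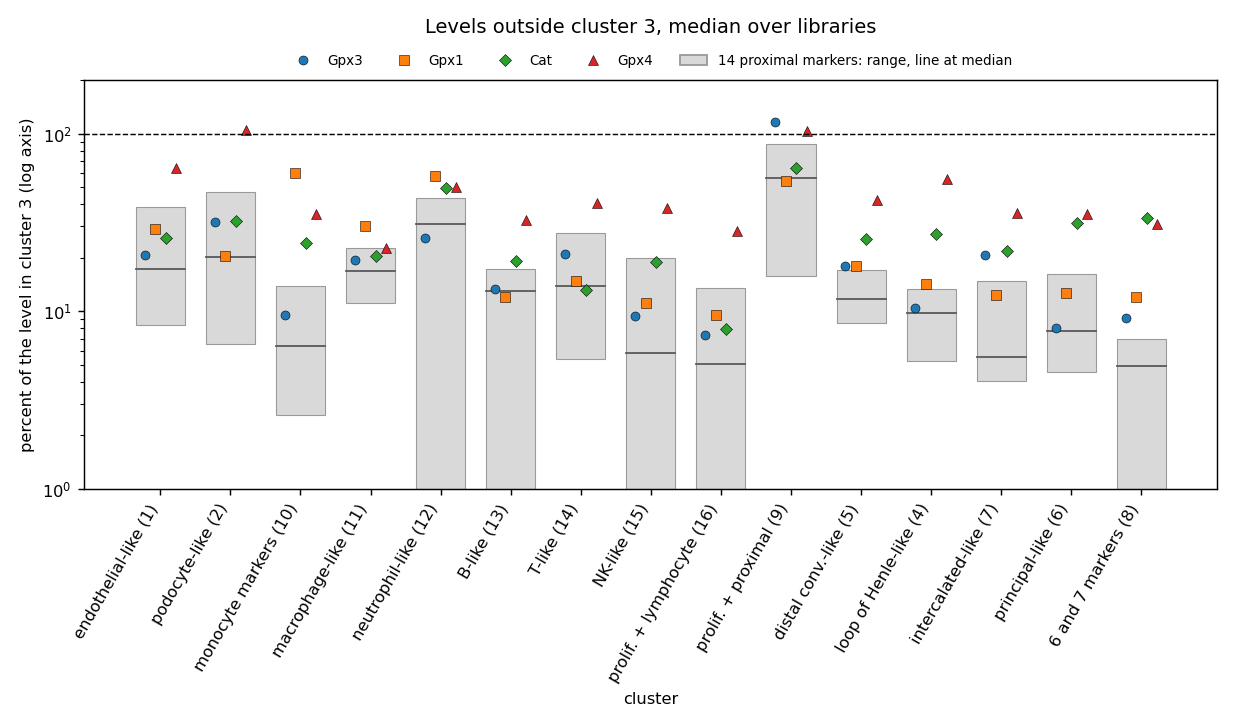
Level of Gpx3, Gpx1, Cat and Gpx4 in each cluster as a percent of the level in the proximal-like cluster (log axis, median over libraries), with grey bars for the range of 14 proximal markers, cut at 1% where a marker was at 0. Gpx3 lies inside the bar in 11 of 15 clusters, and Gpx4 lies above the bar in every one.

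Libraries differed more for some genes than for others. In cluster 3 the coefficient of variation over the 7 libraries was 4.73% for Gpx1, 8.53% for Gpx4 and 10.5% for Sod1, below the median of 19.5% over 2282 genes. It was 30.9% for Gpx3, 31.5% for Prdx5, 41.3% for Prdx1 and 74.9% for Mt1, the last at the 97.9th percentile. Without library 7 the coefficient of Mt1 was 37.8%. In cluster 4, Mt1 had a coefficient of 19.9%, close to the median of 19.96% over 2304 genes there.

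The genes whose levels were most like those of each member were found by Pearson's correlation of log2(mean CPM + 10) over the 16 clusters, among 3710 genes of at least 100 CPM in some cluster. These are descriptions over clusters of unequal depth that share 7 libraries. For Mt1 they were Mt2 (r = 0.952), Pantr1 (0.941) and Me3 (0.925), and for Mt2 they were Sostdc1 (0.958), Mt1 and Pantr1 (0.920), so each metallothionein was the only member among the other's closest 3. For Gpx1 they were Upb1 (0.963), Gpr137b (0.941) and Khk, the fructose kinase gene (0.932). For Gpx3 they were Amn (0.961), the partner of cubilin in protein uptake, the amino acid transporter gene Slc7a9 (0.956) and Clec2h (0.953), and for Cat they were Mpv17l (0.947), Aass (0.933) and Pcx. Gpx4 was most like Stk16, Galnt11 and Hrsp12 (0.912 to 0.890) and Sod1 like Lrpap1, Slc6a6 and Col4a2 (0.852 to 0.819). Sod2 was most like Hagh, Suclg2 and Smim4 (0.963 to 0.960), Prdx5 like Cpt1a, Phyh and Gng12 (0.914 to 0.902), and Prdx1 like Tmem256, Twf1 and Mrpl28 (0.851 to 0.813).

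Other genes of the same chemistry were counted in 8 lists. In cluster 3 against clusters 4 to 7, 29.1% of all genes were higher and 31.4% lower (60.4% in either direction). A list near these shares is not set apart from other genes. In proximal tubule-like cells against the mean of clusters 4 to 7, 9 of 12 genes of glutathione synthesis and recycling tested were higher and 1 lower, with a median log2 fold of 1.16. Among them were Dpep1 (3.42 ± 0.156) and Ggt1 (2.50 ± 0.159), which break down glutathione outside the cell, the glutathione synthetase gene Gss (2.68 ± 0.132) and Ggct (1.98 ± 0.147). Of 11 peroxisome genes tested, 10 were higher and 0 lower, with a median of 1.89, led by the peroxisomal oxidase genes Pipox (3.61), Dao (3.37) and Hao2 (3.11) and by Ehhadh (2.77). Of 10 genes of other peroxiredoxins, thioredoxins and reductases, 6 were higher and 3 lower, with the thioredoxin gene Txn1 at 1.32 and its inhibitor Txnip at -2.73, Srxn1 at -0.88 and Prdx2 at -0.77. Of 4 other peroxidase and dismutase genes, Sod3, which encodes the extracellular dismutase, was at 3.40 ± 0.138, Ccs, the copper chaperone of SOD1, at 0.45 and Gpx6 at -3.78 ± 0.230.

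Of 10 selenium genes tested, 5 were higher and 2 lower, among them Sepp1, the gene of the selenium carrier selenoprotein P (2.42), Sephs2 (2.29), which makes the selenium donor, Msrb1 (2.21) and Secisbp2 (1.09). NRF2 genes gave 5 higher and 3 lower of 13, with Me1 (3.61) and the ferritin genes Ftl1 (2.29) and Fth1 (1.69) higher and Nfe2l2, which encodes NRF2, lower (-1.57). Zinc and copper genes gave 4 higher and 3 lower of 10, with Atox1 (0.80), Slc30a9 (0.65), Slc31a1 (0.46) and Slc30a5 (-0.36). In either direction, the selenium, NRF2 and zinc and copper lists were called at near the 60.4% of all genes. Glucocorticoid and immediate early genes gave 4 higher and 8 lower of 15, with Fos (-2.99), Egr1 (-2.54) and Hspa1a (-2.18) lower and Dusp1 (2.00) higher. Immediate early genes can be switched on while tissue is dissociated, and their part in the metallothionein difference was not tested. Counts of the glucocorticoid and immediate early list in further comparisons are given beside the direction of Mt1, and a link was not tested. The list holds both kinds of genes together, and the shares of all genes were given above. It gave 0 higher and 3 lower of 11 in late against early proximal cells, where Mt1 was lower, and 6 higher and 1 lower of 15 in macrophage-like cells against clusters 12 to 15, where Mt1 was higher. It gave 12 higher and 0 lower of 15 in endothelial-like cells and 8 higher and 2 lower in clusters 11 to 15, each against clusters 3 to 7, where Mt1 was lower. In intercalated-like against principal-like cells it gave 1 higher and 8 lower, with Mt1 at 0.06.

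The same lists were counted in the other comparisons. In late against early proximal cells, 6 of 12 glutathione genes were higher and 2 lower, and the members diverged, with Dpep1 at -2.32 ± 0.127 and Ggt1 at 1.49 ± 0.106, Ggct at 1.72 and Gclm at 0.83. Peroxisome genes gave 7 higher and 0 lower of 12, with Ehhadh (1.54), Hao2 (1.25) and Pex11a (0.93), the same direction as Cat. The selenium list gave 3 higher and 2 lower of 10, led by Sepw1 (-2.12 ± 0.244), and the thioredoxin list 6 higher and 2 lower of 11, led by Txnip (1.52). In macrophage-like cells against clusters 12 to 15, 5 of 13 NRF2 genes were higher and 0 lower, among them Nfe2l2 (1.56), Hmox2 (1.25), Fth1 (1.05) and Ftl1 (0.86). In intercalated-like against principal-like cells, Prdx3, the mitochondrial peroxiredoxin gene, was higher by 0.89 ± 0.171, Prdx2 by 0.88 and Ccs by 1.77, while the copper importer gene Slc31a1 was at -1.30. In distal convoluted tubule-like against loop of Henle-like cells, Gclc, the gene of the rate-limiting enzyme of glutathione synthesis, was higher by 1.53 ± 0.203, and Egr1 (-2.03), Junb (-1.39) and Jun (-1.05) were lower. The shares of all genes called higher and lower were 13.2% and 12.1% in late against early cells. They were 11.4% and 3.96% in macrophage-like cells against clusters 12 to 15, and 12.7% and 12.3% in intercalated-like against principal-like cells. In distal convoluted tubule-like against loop of Henle-like cells they were 6.75% and 6.01%. No list was tested against these shares.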

How the data were processed

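The submitters' processing notes name mm10 and GRCm38.p4 as genome builds, and as tools STAR and Cell Ranger 1.3. The authors deposited one matrix of UMI counts per gene and cell with a cluster number per cell, and no column was left unused. The members and gene lists were chosen with earlier results of these data known. Named list genes were the up to 4 largest folds per list and contrast among called genes above an average log2 CPM of 5. Counts were summed per library and cluster (at least 5 cells) and scaled to CPM. Sums were tested with edgeR 4.0.16 in R 4.3.3 (TMM, filter on low counts, quasi-likelihood F test with library as a block, Benjamini-Hochberg adjustment over all genes, threshold 0.05), with all clusters in one fit and late and early proximal cells in another. DESeq2 1.42.0 was one of the alternatives. Libraries are paired across clusters because every library, a single kidney, supplied cells to most clusters. With that block, p-values measure how far differences between groups vary from library to library, each taken as a kidney. A level shared by all sums of a library is taken out. A single estimate of spread per gene covers all groups of a fit. Doublets were not called, and leaving out the 5% of cells with the most UMIs was an alternative. Depth, from 4217169 to 49997616 UMIs per library, limits small clusters most. The scripts were tested on simulated data. Levels were processed in Python 3.11.15, and positions came from GENCODE on GRCm38. One reporter genotype and one list gene that the rule names are not reported here.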

Additional observations from a re-analysis of the deposited data

Results flagged for a closer look

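For 170 sets of levels, the gap between the farthest library and its nearest neighbour was divided by the range of all libraries of the set. The sets were those of the 10 genes in each cluster with 4 to 7 libraries and in the late and the early cells of cluster 3. In 13 sets a library stood apart, and chance alone flags about 1 in 20. Library 7 stood apart for the metallothioneins, with Mt1 at 731 CPM in proximal tubule-like cells (97.6 to 304 in the others), 4482 CPM in distal convoluted tubule-like cells (2184 to 3088) and 1053 CPM in B lymphocyte-like cells (80.3 to 351), and Mt2 at 142 CPM in proximal tubule-like cells (19.2 to 50.5). Library 6 stood apart for Gpx1, at 785 CPM in distal convoluted tubule-like cells (526.4 to 611), 525 CPM in intercalated-like cells (368 to 428) and 1903 CPM in macrophage-like cells (656 to 1061), and for Cat, at 237 CPM in cluster 10 (77.8 to 120.4) and 377 CPM in macrophage-like cells (0 to 139). Of the remaining sets, Gpx3 was at 892 CPM in library 7 of podocyte-like cells (7063 to 7996), Prdx5 at 866 CPM in library 2 of B lymphocyte-like cells (236 to 495), Mt1 at 1645 CPM in library 5 of macrophage-like cells (264 to 555) and Mt2 at 166 CPM in library 2 of cluster 10 (0 to 62.2). The podocyte-like sum of library 7 held 7 cells. Library 7 also had the lowest level of the proximal marker Kap in cluster 3, as given above.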

How the results depend on the processing

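Libraries serve as the replicate block. Without the replicate block, 0 of the 10 genes were higher and 0 lower in cluster 5 against 4, and 1 was higher in cluster 7 against 6. With only the compared clusters in the fit, 5 were higher and 3 lower in 5 against 4, and 1 was lower in 7 against 6, as with DESeq2 size factors (1) and thinned cells (1). DESeq2 gave 0 lower in 5 against 4 and 1 lower in macrophage-like against other immune cells, where no low-count filter and no mitochondrial genes left 1 higher. In that contrast, leaving out a library left 1 to 3 higher and 0 to 1 lower, and in 5 against 4 it left 1 to 2 lower. Requiring at least 2 marker UMIs gave 5 higher in late against early cells. Signs reversed for small folds: Sod2 in 3 against 4 to 7 (-0.056 with DESeq2, -0.055 with its size factors); in 7 against 6, Mt1 (-0.18 with both) and Prdx5 (-0.14 with both); in macrophage-like cells, Cat (-0.060 with no filter, -0.0094 without mitochondrial genes); in endothelial-like cells, Gpx4 (-0.024 with no filter, -0.042 thinned and -0.043 without the deepest cells) and Gpx1 (-0.026, -0.18 and -0.078). Leaving out a library gave folds for Mt1 of -0.045 to 0.19 and for Prdx5 of -0.0065 to 0.17 in 7 against 6, Gpx1 of -0.34 to 0.056 in immune cells, Cat of -0.31 to 0.15 and Prdx5 of -0.051 to 0.36 in macrophage-like cells, Gpx4 of -0.088 to 0.12 and Gpx1 of -0.060 to 0.14 in endothelial-like cells, and Prdx1 of -0.046 to 0.10 in late cells. The causes were not tested. Free RNA and depth limit what can be said of low levels in small clusters.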
